A study of Mus musculus with 10 samples.

Results

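The genes that build the epithelial basement membrane, and the receptors that hold cells to it, were followed through mouse kidney ureteric bud (UB) organoids, collecting duct (CD) organoids and CD cells of adult mice (adult mCD). They were chosen by name from the 39273 genes of an RNA-seq table. The choice took every laminin chain (Lama, Lamb and Lamc), every integrin α and β chain (Itga and Itgb), the linkers Nid1, Nid2, Hspg2 and Agrn, the Fraser complex genes Fras1, Frem1 and Frem2, and Npnt. This gave 45 genes, of which 11 encode laminin chains and 26 integrin chains. There were 10 libraries, 2 in each of 5 groups.

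UB organoids were grown in Matrigel, a laminin-rich matrix from a mouse tumour, from UBs of E11.5 embryos, in the UB culture medium mUBCM. They were profiled after 5, 10 and 20 days (UB day 5, day 10 and day 20), and the study's methods describe passaging every 5 days. CD organoids were UB organoids moved at day 10 into the CD differentiation medium CDDM for 7 days. That medium holds FGF9, the ROCK inhibitor Y27632, the Notch pathway inhibitor DAPT, the MEK inhibitor PD0325901, aldosterone and vasopressin. All 10 libraries carry the same labels for genotype (Wnt11-RFP +/-), strain background (C57BL/6 x Swiss Webster) and age (embryonic day 11). For adult mCD these labels, and a title that calls them organoids, differ from the series description, which gives cells sorted from kidneys of Hoxb7-Venus mice 2 months old. Hoxb7-Venus marks the UB and the epithelium that descends from it. No source states that the 2 libraries of a group came from separate cultures or animals, so that p-values measure the spread between these libraries, which may be technical.

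A laminin is a cross-shaped trimer of 1 α, 1 β and 1 γ chain, and trimers polymerise into the sheet on which an epithelium rests. Nidogens and the heparan sulphate proteoglycans perlecan (Hspg2) and agrin (Agrn) tie that sheet to the collagen IV network and to cells, and integrins, each a pair of 1 α and 1 β chain, bind it from the cell. In the developing kidney, UB outgrowth and branching are known to need laminin α5 and γ1, integrins α3β1 and α8β1, and nephronectin (Npnt), the UB ligand of α8β1 on the mesenchyme. Laminin α3 and β3 chains belong to laminin-332, the ligand that anchors stratified and some simple epithelia through integrins α3β1 and α6β4.

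Library totals were 22858971 to 24536676 counts at UB days 5 and 10, 11913613 to 14953162 at UB day 20 and in CD organoids and 16038205 to 16759872 in adult mCD, and the 45 genes took between 0.672% and 1.34% of them, with the lowest shares in adult mCD. Mitochondrial genes took 0.969% to 1.58% of the counts at UB days 5 and 10 and 3.10% to 3.39% at UB day 20 and in CD organoids. Depth and this share thus moved with the comparisons of UB day 20 with day 5 and of CD organoids with UB day 10, and their part in those results was not tested. In CD organoids the mitochondrial share lay between those of the UB day 20 libraries. The samples of UB days 5 and 10 are also numbered in a run apart from the other groups, and whether this marks a batch is not known. Detection was limited to 3 counts, which came to 0.109 to 0.241 CPM (counts per 1000000 scaled library counts) and covers counting error only. The 6 UB tip markers summed to 2312 to 4043 CPM in UB organoids, 365 to 385 CPM in CD organoids and 97.6 to 116 CPM in adult mCD. The 8 principal cell (PC) markers summed to 1334 to 1497 CPM in CD organoids and 11520.0 to 11980.0 CPM in adult mCD, against at most 226 CPM in UB organoids, although Avpr2 was at or near 0 in all groups. All 7 intercalated cell (IC) markers were detected in CD organoids and adult mCD. Adult mCD also carried markers of other kidney cells, with 779 and 795 CPM over 7 endothelial genes (3.99 to 23.6 CPM in organoids) and 4283 to 5088 CPM over 8 proximal tubule genes (6.91 to 37.4 CPM in organoids). The 4 podocyte genes summed to 298 and 357 CPM in adult mCD, most of it Podxl, and to 7.30 to 36.1 CPM in organoids. The part of these cells in the results on adult mCD was not tested. In bulk RNA, fewer cells of a type and less RNA per cell cannot be told apart.

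**Figure D1:**
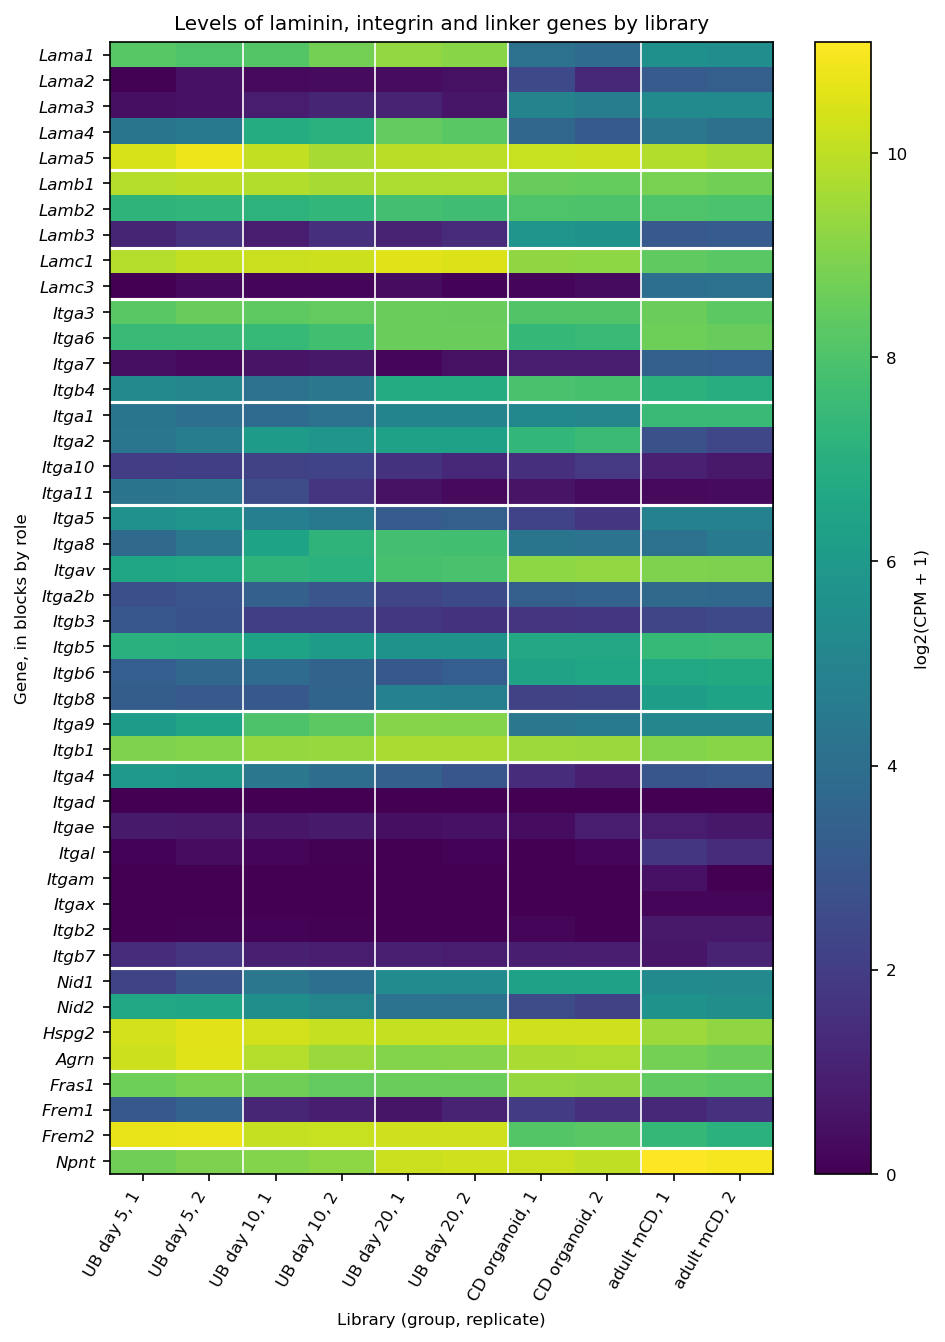
Levels of the laminin, integrin and linker genes, as log2(CPM + 1), with 1 column per library and genes in blocks by role. Lama5, Lamb1, Lamc1, Itgb1, Hspg2 and Agrn are bright in all 10 libraries, whereas the leukocyte integrin genes other than Itga4 are dark throughout.

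The comparisons used the quasi-likelihood test of edgeR, and p-values were adjusted by Benjamini-Hochberg over all 24410 genes tested. Genes are termed called where they differed more than 4-fold with an adjusted p no larger than 0.01. A gene is said to rise or fall where the adjusted p was at most 0.05, and changes are given as log2 fold changes with their standard errors. Of the 45 genes, 42 were tested. Itgad had no count in any library, and Itgam and Itgax had fewer than 10 counts in all.

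Between UB day 5 and day 10, 4 of the 42 genes were called (9.52%), 2 higher and 2 lower at day 10, against 3.41% (2.34% higher and 1.07% lower) of all genes tested. Between day 5 and day 20 it was 9 genes (21.4%), 4 higher and 5 lower, against 8.61% (4.68% higher and 3.93% lower). CD organoids differed from UB day 10 in 15 genes (35.7%), 7 higher and 8 lower, against 10.7% (4.96% higher and 5.71% lower). They differed from UB day 20 in 11 genes (26.2%), 4 higher and 7 lower, against 9.46% (4.74% higher and 4.73% lower). Set beside adult mCD, CD organoids held 10 called genes (23.8%), 2 higher and 8 lower, against 14.3% (4.50% higher and 9.84% lower). Adult mCD differed from UB day 20 in 16 genes (38.1%), 9 higher and 7 lower, against 19.2% (12.3% higher and 6.89% lower). These comparisons share libraries, and their counts are not independent of each other. With the adjusted p limit at 0.05 and no limit on the fold, 23 of the 42 genes differed between UB days 5 and 10 (54.8%, against 32.7% of all genes) and 30 between days 5 and 20 (71.4%, against 45.1%). CD organoids differed in 28 genes from UB day 10 (66.7%, against 47.2%), in 30 from UB day 20 (71.4%, against 42.2%) and in 34 from adult mCD (81.0%, against 49.9%), and adult mCD in 32 from UB day 20 (76.2%, against 56.4%).

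The median log2 change of the 42 genes was 0.0006 at day 10 and -0.17 at day 20 against day 5, where the medians of all genes were 0.021 and -0.05. For CD organoids it was 0.07 against UB day 10 and 0.21 against UB day 20, beside -0.15 and 0 for all genes. Against adult mCD it was -0.38, beside 0 for all genes, and for adult mCD against UB day 20 it was 0.23, beside -0.061.

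The promoters of 29 of the 45 genes were found in the RefSeq table on GRCm38.p6, with 35 start sites. Of the genes called in the same direction in CD organoids against both UB day 10 and UB day 20 with a mean of at least 10 CPM over the libraries compared, the table holds Lamb3 and Itgb6, which were higher in CD organoids, and Itga8 and Itga9, which were lower. Their promoters are shown because these genes mark the exchange of laminin and integrin chains described in the paragraphs that follow. Each sequence runs 5′ to 3′ on the gene's strand, from 250 bases before the listed start to 50 after it. Capitals mark the motifs found on either strand. For the AP-1 factors the letters TGANTCA were searched, for the Ets family CCGGAA, for the Tead factors CATTCC, for the Sox family ACAAT and for the Gata factors AGATAA. No motif searched overlapped another in these sequences.
Lamb3 (chr1:193301744-193302043, plus strand): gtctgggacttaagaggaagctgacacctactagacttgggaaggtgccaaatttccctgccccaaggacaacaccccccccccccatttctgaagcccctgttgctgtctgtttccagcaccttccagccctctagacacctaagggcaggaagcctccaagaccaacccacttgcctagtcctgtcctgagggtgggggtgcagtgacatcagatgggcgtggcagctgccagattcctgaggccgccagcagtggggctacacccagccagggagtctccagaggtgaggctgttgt
Itgb6 (chr2:60722554-60722853, minus strand): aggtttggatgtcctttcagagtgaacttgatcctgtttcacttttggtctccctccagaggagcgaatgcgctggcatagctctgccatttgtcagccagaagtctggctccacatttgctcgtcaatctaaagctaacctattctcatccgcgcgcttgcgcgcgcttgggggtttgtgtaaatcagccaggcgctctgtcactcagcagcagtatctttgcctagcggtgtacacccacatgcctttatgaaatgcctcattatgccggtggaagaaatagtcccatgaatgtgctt
Itga8 (chr2:12301895-12302194, minus strand): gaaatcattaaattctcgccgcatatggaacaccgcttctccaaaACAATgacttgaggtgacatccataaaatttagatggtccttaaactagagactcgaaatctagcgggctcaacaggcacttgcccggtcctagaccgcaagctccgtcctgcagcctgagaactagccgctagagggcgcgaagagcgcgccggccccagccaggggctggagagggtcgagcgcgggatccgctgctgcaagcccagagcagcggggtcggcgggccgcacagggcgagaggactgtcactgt
Itga9 (chr9:118711442-118711741, plus strand): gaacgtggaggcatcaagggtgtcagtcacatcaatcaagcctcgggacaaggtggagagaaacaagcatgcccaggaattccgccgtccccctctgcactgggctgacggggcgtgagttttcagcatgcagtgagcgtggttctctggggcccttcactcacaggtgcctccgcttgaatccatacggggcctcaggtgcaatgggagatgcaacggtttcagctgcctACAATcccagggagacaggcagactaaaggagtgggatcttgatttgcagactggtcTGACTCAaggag
The starts listed for Lamb3 and Itga9 lie 94295 and 105002 bases inside the gene as annotated in GENCODE M21, so that they are not the most upstream starts. None of the 5 motifs was present in the windows shown for Lamb3 and Itgb6. The table lists a second start for each, further inside the gene, and those windows held the Tead letters for Lamb3 and the Sox letters for Itgb6. Lama2 and Itga4, called in the same direction against both days but with lower means, had none of the motifs in their windows. The Sox letters stood 205 bases before the start of Itga8 and 19 before that of Itga9, whose window also held the AP-1 letters at base 38 after the start. Over all 32851 promoters the Sox letters occurred in 31.0% and the AP-1 letters in 7.81%, against 17.2% and 6.90% of the 29 genes found, each by its most upstream listed start. The Ets, Tead and Gata letters were found for 10.3%, 13.8% and 3.45% of these genes and in 14.9%, 14.7% and 11.2% of all promoters. A match of this length is a description of the letters in the window.

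The shares of the laminin α chains differed between groups. Per kilobase of exon, Lama5, the α chain of most mature epithelial basement membranes (chr2:180176373-180225859 on GRCm38), was the most abundant α chain in all 10 libraries. Its share of the summed CPM per kb of the 5 α chains was 81.7% ± 3.90 (mean ± SD, n = 2) at UB day 5, 63.2% ± 11.4 at day 10, 49.8% ± 2.80 at day 20, 95.2% ± 0.976 in CD organoids and 88.1% ± 0.410 in adult mCD. Lama1 and Lama4 filled the rest in UB organoids, with 34.8% and 15.3% of the α chains at day 20, and fell to 1.47% and 0.760% in CD organoids. The level of Lama5 itself did not pass the test between CD organoids and either UB day 10 (log2 change 0.30 ± 0.14 (SE), adjusted p = 0.0959) or UB day 20 (0.21 ± 0.14 (SE), adjusted p = 0.273).

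**Figure D2:**
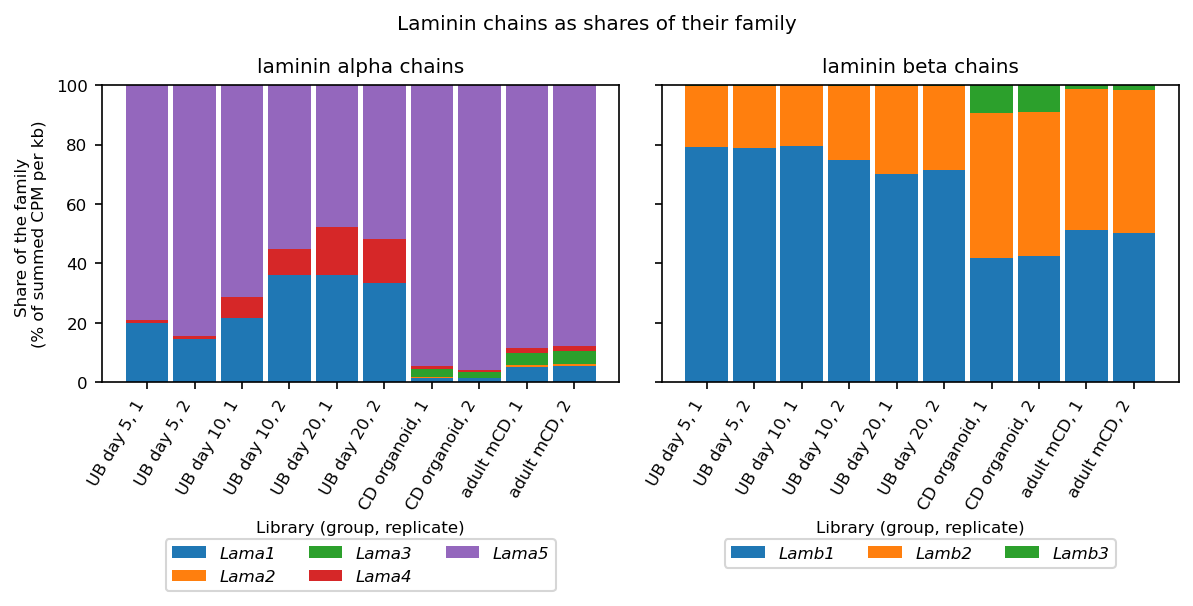
Share of each chain in the summed CPM per kb of exon of its family, in %, for α and β chains in each of the 10 libraries. Lama1 and Lama4 together make up more of the α chains in each UB library than in any CD organoid or adult mCD library. Lamb3 is visible among the β chains of CD organoids.

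Lama1 (chr17:67697259-67822647), the α chain of laminin-111 and the main one of Matrigel, was at 294 and 264 CPM at UB day 5, 277 and 442 CPM at day 10 and 625 and 563 CPM at day 20. In CD organoids it was at 16.4 and 13.8 CPM, and in adult mCD at 46.7 and 42.5 CPM. Each UB library was thus above each CD organoid and adult library. The log2 change in CD organoids was -4.56 ± 0.20 (SE), adjusted p = 4.55e-10 against UB day 10, and -5.29 ± 0.20 (SE), adjusted p = 2.31e-10 against UB day 20, a fall of 39.02-fold. Adult mCD stood above CD organoids, with a log2 change of CD organoids over adult mCD of -1.55 ± 0.20 (SE), adjusted p = 1.64e-05.

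Lama4 (chr10:38965515-39110188), known from endothelial, muscle and mesenchymal basement membranes, was the laminin gene that rose most in UB culture. It was at 18.8 and 21.4 CPM at day 5, 114 and 135 CPM at day 10 and 348 and 305 CPM at day 20, with no overlap between days. The log2 change from day 5 was 2.63 ± 0.14 (SE), adjusted p = 5.97e-08, at day 10 and 4.02 ± 0.15 (SE), adjusted p = 4.43e-10, at day 20. CD organoids held 11.7 and 7.78 CPM and adult mCD 19.9 and 16.04 CPM, and 3 of these 4 libraries were below both UB day 5 libraries. Against UB day 20 the fall in CD organoids was 33.2-fold, with a log2 change of -5.05 ± 0.17 (SE), adjusted p = 5.71e-11.

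Lama3, the α chain of laminin-332, was low in UB organoids, with at most 1.20 CPM in any of the 6 libraries. CD organoids held 30.3 and 23.98 CPM and adult mCD 37.9 and 37.3 CPM. The rise in CD organoids was 25.7-fold against UB day 10 (log2 change 4.68 ± 0.22 (SE), adjusted p = 1.09e-09) and 29.00-fold against UB day 20. CD organoids and adult mCD were -0.47 apart on the log2 scale (adjusted p = 0.0344), with the adult libraries higher. Lama3 remained a minor α chain, at 2.38% of the family in CD organoids and 4.11% in adult mCD.

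Lama2, the α chain of muscle and mesenchymal basement membranes, was below 0.5 CPM in each UB library, at 4.42 and 1.36 CPM in CD organoids and at 7.99 and 9.35 CPM in adult mCD. It was called higher in CD organoids than at UB day 10 (log2 change 3.40 ± 0.60 (SE), adjusted p = 0.000296) and day 20 (2.89 ± 0.63 (SE), adjusted p = 0.00182). Without CD organoid replicate 1 the log2 changes were 2.34 and 1.82 and neither was called. The call against UB day 20 was also lost without UB day 20 replicate 1 (2.72) or 2 (3.06) and with quantile normalization (2.65). The 9 stromal and mesangial markers, led by Col3a1 and Col1a1, moved with it. They summed to 282 CPM in that library and 149 CPM in replicate 2, against 13.7 to 40.0 CPM in UB organoids. Their part in the Lama2 values was not tested.

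Among the β chains, UB organoids held mostly Lamb1 and CD organoids held Lamb1 and Lamb2 at similar levels per kilobase. The share of Lamb1 was 79.1% ± 0.226 at UB day 5, 70.7% ± 1.02 at day 20, 42.1% ± 0.417 in CD organoids and 50.8% ± 0.658 in adult mCD, and that of Lamb2 20.7% ± 0.170, 29.2% ± 1.05, 48.7% ± 0.0919 and 47.8% ± 0.502. With the longer gene lengths of the deposited RPKM values Lamb2 was the larger in both, with 62.7% in CD organoids and 61.8% in adult mCD. Lamb1 (chr12:31265234-31329644), the β chain of laminin-111 and laminin-511, fell from 908 and 791 CPM at UB day 10 to 361 and 358 CPM in CD organoids (log2 change -1.24 ± 0.085 (SE), adjusted p = 3.4e-08). Lamb2, the β chain of laminin-521, was at 144 and 160.5 CPM at UB day 10 and 258 and 252 CPM in CD organoids, a rise of 0.75 on the log2 scale (adjusted p = 2.7e-06). In adult mCD it was at 265 and 248 CPM, a range that holds both CD organoid values.

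Lamb3 (chr1:193207699-193343878), a laminin-332 chain, showed the largest rise of any of the 42 genes in CD organoids. UB libraries held 0.833 to 1.96 CPM, with 0.833 and 1.90 CPM at day 10 and 1.15 and 1.52 CPM at day 20. CD organoids held 54.7 and 51.01 CPM, and adult mCD 7.69 and 8.33 CPM. The change in CD organoids was 5.21 ± 0.27 (SE), adjusted p = 2.05e-09 against UB day 10 on the log2 scale, or 5.91 without UB day 10 replicate 2, and 5.26 ± 0.28 (SE), adjusted p = 4.56e-09 against UB day 20. CD organoids also exceeded adult mCD, 6.56-fold (log2 change 2.71 ± 0.23 (SE), adjusted p = 3.08e-07), and adult mCD exceeded UB day 20 by 2.54 ± 0.31 (SE), adjusted p = 7.25e-06. CD organoids thus held the highest Lamb3 levels of the 5 groups, with no overlap.

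Lamc1 (chr1:153218922-153332786), the γ chain of most laminins, was at 1556 and 1464 CPM at UB day 20, 603 and 583 CPM in CD organoids and 330.2 and 302 CPM in adult mCD. The log2 change against UB day 20 was -1.35 ± 0.087 (SE), adjusted p = 2.68e-08, in CD organoids and -2.26 ± 0.09 (SE), adjusted p = 8.76e-11, in adult mCD, where it was called.

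Lamc3, a γ chain known from brain and retina, was at 15.8 and 16.6 CPM in adult mCD. CD organoids held 2 and 3 counts, and UB organoids at most 0.304 CPM. Over the summed counts of each group, 420 in adult mCD and 5 in CD organoids, adult mCD was 85.7-fold higher, with an exact 95% Poisson interval of 36.4 to 265 that covers counting error only (adjusted p = 1.15e-07). Against UB day 20 the fitted log2 change of adult mCD was 6.06 ± 0.45 (SE), adjusted p = 4.73e-08, or 7.09 without UB day 20 replicate 1. The endothelial markers, among them Pecam1 at 156 and 159 CPM in adult mCD and 0.712 and 0.802 CPM in CD organoids, moved with it, and their part in this difference was not tested.

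Lama3 and Lamb3, the α and β chains of laminin-332, both rose in CD organoids against both UB days. Per kilobase of exon the CD organoid levels were 2.52 CPM per kb for Lama3 and 7.99 for Lamb3. In adult mCD the order was the opposite, with 3.50 CPM per kb for Lama3 and 1.21 for Lamb3, and at UB day 20 they were at 0.0814 and 0.202 CPM per kb. RNA levels do not show which trimers were made.

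The α chains of the laminin-binding integrins, Itga3 and Itga6, were detected at high levels in all 5 groups, and Itgb4, a β partner of Itga6, varied over a wider range. Itga3, which pairs with β1 and binds laminin-332 and laminin-511, ranged from 266 to 384 CPM over all 10 libraries. Its changes were at most 0.47 in size on the log2 scale in the 6 comparisons. Itga6, which pairs with β1 or β4, was at 178 and 185 CPM at UB day 5, 171 and 214 CPM at day 10 and 382 and 379 CPM at day 20. It was at 168 and 175 CPM in CD organoids and 393 and 362 CPM in adult mCD. CD organoids were thus near UB day 5 and did not pass the test against UB day 10 (log2 change -0.17 ± 0.094 (SE), adjusted p = 0.167). They were below UB day 20 (-1.15 ± 0.095 (SE), adjusted p = 2.76e-07) and adult mCD (-1.14 ± 0.095 (SE), adjusted p = 2.53e-07).

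Itgb4 (chr11:115974709-116008412), the β chain of the hemidesmosomal integrin α6β4, was at 36.04 and 34.6 CPM at UB day 5, 16.97 and 20.9 CPM at day 10 and 111 and 115 CPM at day 20. It reached 238 and 235 CPM in CD organoids, above adult mCD at 138 and 119 CPM. The log2 change in CD organoids was 3.64 ± 0.10 (SE), adjusted p = 1.29e-11 against UB day 10, a 12.4-fold rise, but 1.06 ± 0.094 (SE), adjusted p = 5.12e-07 against UB day 20. UB day 10 was the lowest of the 5 groups, so that the size of the rise depends on the day chosen. CD organoids were 0.88 above adult mCD on the log2 scale (adjusted p = 2.8e-06).

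Itga7, the laminin-binding α chain of muscle, was below 1 CPM in all organoid libraries and at 9.57 and 8.80 CPM in adult mCD (log2 change of CD organoids over adult mCD -3.45 ± 0.34 (SE), adjusted p = 1.51e-06). Against UB day 20 the log2 change of adult mCD was 4.91 ± 0.39 (SE), adjusted p = 9.29e-08, or 5.73 without UB day 20 replicate 2. Its exons overlap those of Mettl7b on the opposite strand by 9 bases, and Mettl7b had 478 and 570 counts in adult mCD and at most 1 in each organoid library. The methods name a kit that marks strand and the labels a TruSeq kit of no stated type, and the use of strand in the counting was not given in the sources used here, and the part of these reads in the Itga7 counts was not tested.

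**Figure D3:**
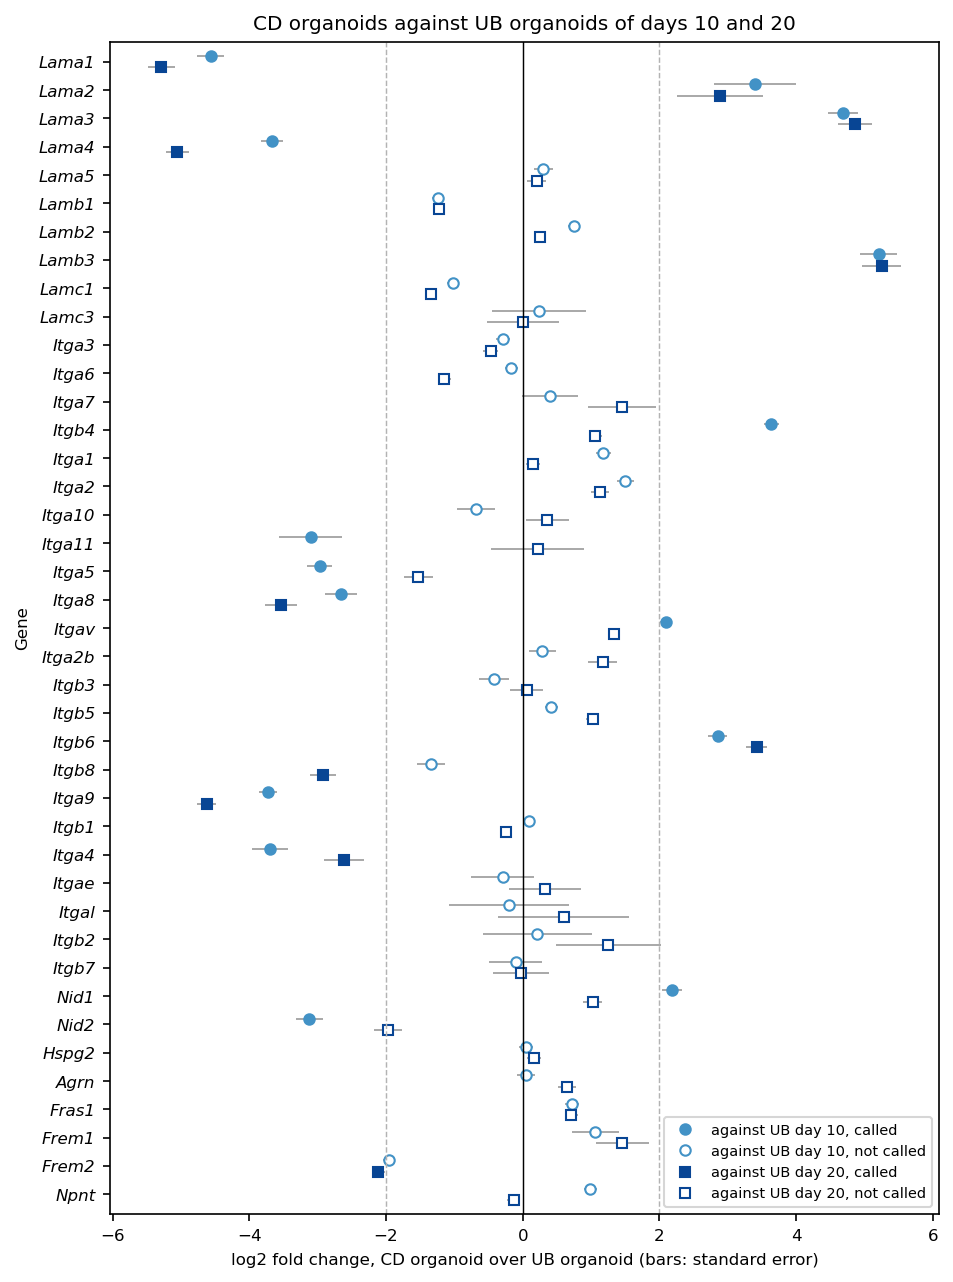
Log2 fold changes of CD organoids over UB organoids for the genes tested, with standard errors, against UB day 10 (circles) and UB day 20 (squares). Filled symbols were called, and dashed lines stand at a 4-fold change. Lama3, Lamb3 and Itgb6 lie to the right and Lama1, Lama4, Itga8 and Itga9 to the left against both days.

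Among the collagen-binding α chains, Itga2 and Itga1 stood in opposite orders in CD organoids and adult mCD. Itga2 (chr13:114833081-114932100), the α chain of α2β1 in epithelia and platelets, was at 19.7 and 24.5 CPM at UB day 5, 69.2 and 54.5 CPM at day 10, 80.5 and 79.9 CPM at day 20 and 162 and 189 CPM in CD organoids. Adult mCD held 5.73 and 4.09 CPM, the lowest of the 5 groups. CD organoids exceeded adult mCD 35.2-fold (log2 change 5.14 ± 0.18 (SE), adjusted p = 3.98e-11), the largest difference in that direction among the 42 genes. The 5 platelet markers summed to at most 2.005 CPM in any library.

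Itga1 (chr13:114953096-115101964), next to Itga2 on chromosome 13 and its counterpart in mesenchyme, vessels and some epithelia, was at 13.8 and 16.7 CPM at UB day 10, 30.9 and 31.3 CPM at day 20, 35.1 and 33.9 CPM in CD organoids and 177 and 181 CPM in adult mCD. CD organoids were lower than adult mCD (log2 change -2.38 ± 0.11 (SE), adjusted p = 4.83e-10), and adult mCD higher than UB day 20 (2.53 ± 0.11 (SE), adjusted p = 1.4e-10). With library totals alone the first of these was -1.98 and no longer called. The endothelial markers were also higher in adult mCD than in organoids, and their part in the Itga1 values was not tested.

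Itga11, a collagen receptor chain of mesenchymal cells, fell during UB culture. It went from 18.4 and 20.1 CPM at day 5 to 5.04 and 2.30 CPM at day 10 and 0.425 and 0.198 CPM at day 20, and was at most 0.499 CPM in CD organoids and adult mCD. The log2 change at day 20 was -5.71 ± 0.41 (SE), adjusted p = 1.36e-07, the largest fall of the 42 genes in UB culture. At day 10 it was -2.38 ± 0.28 (SE), adjusted p = 3.12e-05, or -3.05 without UB day 10 replicate 1 and -1.94, not called, without replicate 2. CD organoids were called lower than UB day 10 at -3.10 ± 0.46 (SE), adjusted p = 7e-05, or -2.43 without UB day 10 replicate 1. The change against UB day 20, 0.22 ± 0.68 (SE), adjusted p = 0.851, did not pass the test. Itga10, the cartilage collagen receptor chain, stayed between 0.708 and 3.76 CPM and shares 33.5% of its exon bases with the gene model Gm42957.

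The RGD-binding integrins, which recognise fibronectin, vitronectin, nephronectin and latent TGF-β, exchanged several chains. In CD organoids Itgav and Itgb6 were higher and Itga5 and Itga8 lower than at UB day 10. Itgav (chr2:83724397-83806916), the α partner of β1, β3, β5, β6 and β8, rose through UB culture from 91.8 and 100.5 CPM at day 5 to 234 and 242 CPM at day 20 and was at 582 and 622 CPM in CD organoids and 495 and 472 CPM in adult mCD. Its log2 change was 2.09 ± 0.078 (SE), adjusted p = 1.21e-10, against UB day 10, or 1.997 and not called with library totals alone, and 1.34 ± 0.077 (SE), adjusted p = 8.08e-09 against UB day 20. Per kilobase it was the most abundant integrin α chain in CD organoids, with 35.6% ± 0.0848 of that family, where Itga3 led in adult mCD with 34.6% ± 2.57. With the deposited RPKM values Itgav led in adult mCD too, with 28.3% against 26.9% for Itga3.

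Itgb6 (chr2:60598292-60722643), the epithelial β chain that with αv binds and activates latent TGF-β, was at 7.40 to 13.9 CPM in the 6 UB libraries. CD organoids held 83.9 and 93.5 CPM and adult mCD 98.6 and 107 CPM. The rise in CD organoids was 7.22-fold against UB day 10 (log2 change 2.85 ± 0.14 (SE), adjusted p = 1.27e-09) and 10.7-fold against UB day 20 (3.42 ± 0.15 (SE), adjusted p = 7.44e-10). CD organoids and adult mCD did not pass the test, with a log2 difference of -0.21 ± 0.12 (SE), adjusted p = 0.182.

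Itgb8 (chr12:119158022-119238802), the other β chain that activates TGF-β with αv, behaved differently. It was at 8.71 and 7.51 CPM at UB day 5, 28.3 and 26.8 CPM at day 20, 3.42 and 3.77 CPM in CD organoids and 72.7 and 84.3 CPM in adult mCD, with CD organoids the lowest of the 5 groups. The log2 change of CD organoids was -2.93 ± 0.19 (SE), adjusted p = 2.97e-08 against UB day 20 and -4.43 ± 0.19 (SE), adjusted p = 2.85e-10 against adult mCD, a 21.6-fold difference. Itgb5, the vitronectin-binding β chain, fell in UB culture from 129 and 128 CPM at day 5 to 49.4 and 50.8 CPM at day 20, and was at 102 and 102 CPM in CD organoids and 173 and 182 CPM in adult mCD. Itgb3, the β chain of platelets and bone cells, was at most 7.13 CPM, and its platelet partner Itga2b at most 13.3 CPM.

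Itga8 (chr2:12106632-12301922), the α chain of the nephronectin receptor, which in the embryonic kidney is known from the mesenchyme around the UB, rose in UB culture. It was at 13.4 and 19.9 CPM at day 5, 86.6 and 147 CPM at day 10 and 219.5 and 210.0 CPM at day 20, with no overlap between days. CD organoids held 18.9 and 17.97 CPM and adult mCD 16.4 and 23.1 CPM, and both CD organoid values lay between those of the UB day 5 libraries. The log2 change was 2.80 ± 0.23 (SE), adjusted p = 1.29e-06, at day 10 and 3.68 ± 0.23 (SE), adjusted p = 3.97e-08, at day 20, and in CD organoids -2.66 ± 0.24 (SE), adjusted p = 4.6e-07, against UB day 10 and -3.54 ± 0.24 (SE), adjusted p = 3.98e-08 against UB day 20. The stromal and mesangial markers summed to at most 40.0 CPM in any UB library and to 15.4 and 14.9 CPM at day 20, where Itga8 was highest. That list was not chosen for the mesenchyme around the UB, and the part of such cells in the Itga8 values was not tested. On the opposite strand, E030013I19Rik shares 372 exon bases (5.05%) with Itga8 and had 59 and 63 counts at day 20.

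Npnt (chr3:132881745-132950291), which encodes the ligand nephronectin, was the most abundant of the 45 genes per kilobase of exon at UB day 20, in CD organoids and in adult mCD. With the deposited RPKM values it was first in adult mCD alone, behind Lamc1 (139.6), Itgb1 (104.6), Lama5 (79.2) and Frem2 (69.4) with 61.4 RPKM at UB day 20, and behind Lama5 (90.4) and Itgb1 (87.5) with 55.4 RPKM in CD organoids. It was at 413 and 476 CPM at UB day 5, 528 and 583 CPM at day 10, 1175 and 1246 CPM at day 20, 1165 and 1041 CPM in CD organoids and 2182 and 1952 CPM in adult mCD. The log2 change from day 5 to day 20 was 1.45 ± 0.096 (SE), adjusted p = 6.44e-08. CD organoids were -0.13 from UB day 20, which did not pass the test (adjusted p = 0.293), and were lower than adult mCD by -0.91 ± 0.095 (SE), adjusted p = 2.41e-06. The order of UB day 20 and adult mCD depended on the scaling, as a log2 change of 0.77 became -0.15 with quantile normalization.

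Itga5 (chr15:103344286-103366763), the α chain of the fibronectin receptor α5β1, fell in UB culture from 47.6 and 55.7 CPM at day 5 to 26.8 and 21.7 CPM at day 10 and 8.50 and 9.26 CPM at day 20. It was at 3.70 and 2.33 CPM in CD organoids and at 28.6 and 28.4 CPM in adult mCD. The log2 change was -2.53 ± 0.15 (SE), adjusted p = 2.98e-08, for day 20 over day 5 and -2.97 ± 0.19 (SE), adjusted p = 1.5e-08, for CD organoids over UB day 10. Its ligand Fn1, not among the 45 genes, was at 708 and 659.8 CPM at UB day 10 and 116 and 49.6 CPM in CD organoids (log2 change -3.04, adjusted p = 3.36e-07).

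**Figure D4:**
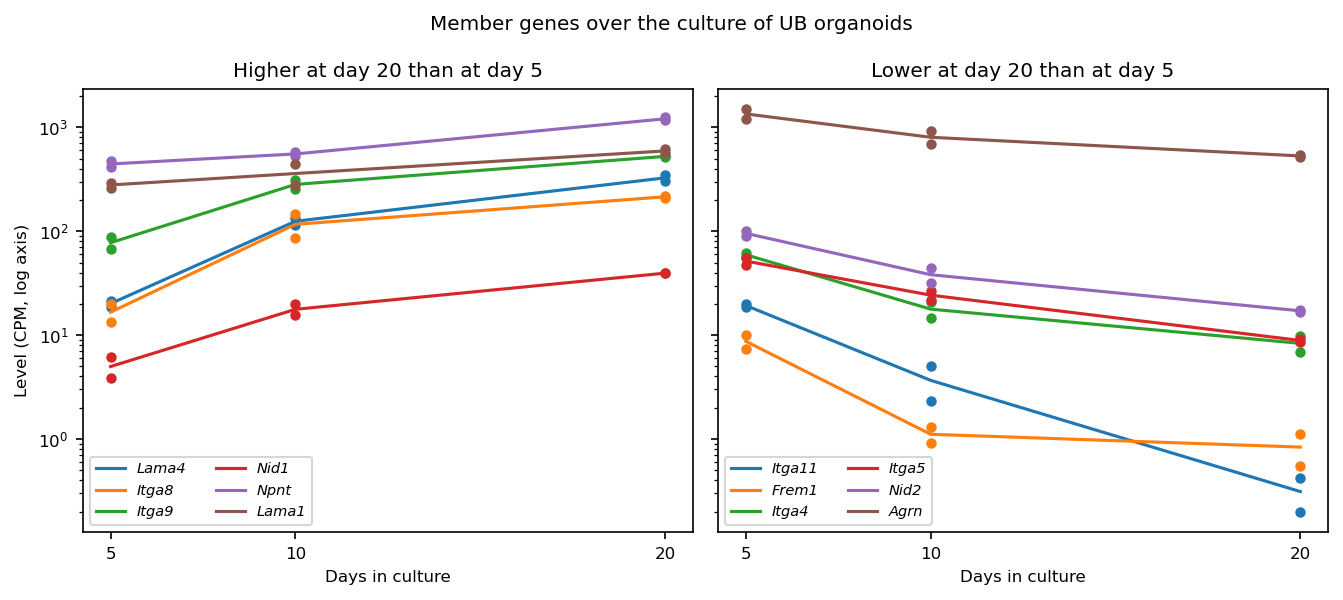
Levels in CPM, on a log axis, of 6 genes that were higher and 6 that were lower at UB day 20 than at day 5, against days in culture, with 1 point per library and lines through the means. Lama4 and Itga8 rise between days 5 and 10 and again to day 20, and Itga11 falls below 1 CPM.

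Itgb1, the common β partner, was the most abundant integrin gene per kilobase in all 5 groups, with 85.3% ± 0.212 of the β chains at UB day 20, 68.97% ± 0.771 in CD organoids and 59.4% ± 0.481 in adult mCD. Its levels ranged from 494 to 817 CPM and its log2 changes from -0.58 to 0.69 over the 6 comparisons. Itga9 (chr9:118606690-118901003), which with β1 binds tenascin-C, osteopontin and VCAM-1, changed far more. It was at 67.5 and 87.7 CPM at UB day 5, 253 and 312 CPM at day 10 and 536 and 516 CPM at day 20, when it was the most abundant integrin α chain per kilobase, with 28.04% ± 0.297 of the family against 26.8% ± 0.0636 for Itga3. CD organoids held 20.1 and 22.5 CPM and adult mCD 34.2 and 33.8 CPM.

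Each UB library was thus above each CD organoid and adult library for Itga9. The log2 change was 2.76 ± 0.12 (SE), adjusted p = 2.39e-09, for day 20 over day 5, -3.73 ± 0.14 (SE), adjusted p = 1.09e-10, for CD organoids over UB day 10 and -4.62 ± 0.14 (SE), adjusted p = 3.64e-11, for CD organoids over UB day 20, a 24.7-fold fall. Of the ligands named above, at UB day 20 Tnc was at 1.03 and 1.45 CPM, Spp1 at 1.21 and 3.17 CPM and Vcam1 at 0.182 and 0.463 CPM. Other genes of the integrin ligand list, which was not sorted by receptor, were higher there. Fn1 was at 681 and 597 CPM and Thbs1 at 155 and 186 CPM. In adult mCD Spp1, which encodes osteopontin, was at 1961 and 1994 CPM.

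Of the chains known mainly from leukocytes, Itga4 was the only one above 10 CPM in any library. It pairs with β1 or β7 and binds VCAM-1 and fibronectin. It fell from 62.1 and 56.7 CPM at UB day 5 to 20.8 and 14.8 CPM at day 10 and 9.71 and 6.94 CPM at day 20 (log2 change -2.82 ± 0.19 (SE), adjusted p = 7e-08). CD organoids held 1.64 and 0.963 CPM and adult mCD 6.71 and 7.55 CPM. CD organoids were lower than UB day 20 (-2.62 ± 0.29 (SE), adjusted p = 4.56e-06) and lower than adult mCD (-2.39 ± 0.30 (SE), adjusted p = 1.35e-05), the last at -1.999 and not called with library totals alone.

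Itgal, Itgb2, Itgam and Itgax, chains of the β2 integrins, were at or below the limit of detection in CD organoids, and in UB organoids only Itgal passed it, in 2 libraries with at most 0.286 CPM. In adult mCD Itgal was at 2.34 and 1.65 CPM and Itgb2 at 0.678 and 0.708 CPM. Itgal had 52 counts in adult mCD, 2 in CD organoids and 1 at UB day 20, which made adult mCD 26.5-fold higher than CD organoids (exact 95% Poisson interval 6.98 to 225) and 63.2-fold higher than UB day 20 (10.9 to 2545). Its adjusted p was 0.000489 and 0.000135, and the fitted log2 change moved from -3.98 to -3.27 and -5.31 without CD organoid replicates 1 and 2, and from 4.58 to 5.27 without UB day 20 replicate 2. Itgb2, with no count at UB day 20, was measured against 3 counts per library and was at least 3.64-fold lower there than in adult mCD (adjusted p = 0.00173), and was not called when either UB day 20 library was left out, with a prior count of 5 (log2 change 1.83) or with DESeq2 (adjusted p = 0.0115). The leukocyte gene Csf1r, at 26.2 and 30.03 CPM in adult mCD and at most 0.214 CPM in organoids, moved with both, and the part of leukocytes was not tested. The sum of the 10 leukocyte markers was higher in CD organoids, 105 and 114 CPM, than in adult mCD, 79.5 and 85.5 CPM. In CD organoids this sum was mostly Cd74 and Ptprc, while Tyrobp was at 0 there. Itgae and Itgb7 stayed below 2.3 CPM in all libraries and were called in no comparison.

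**Figure D5:**
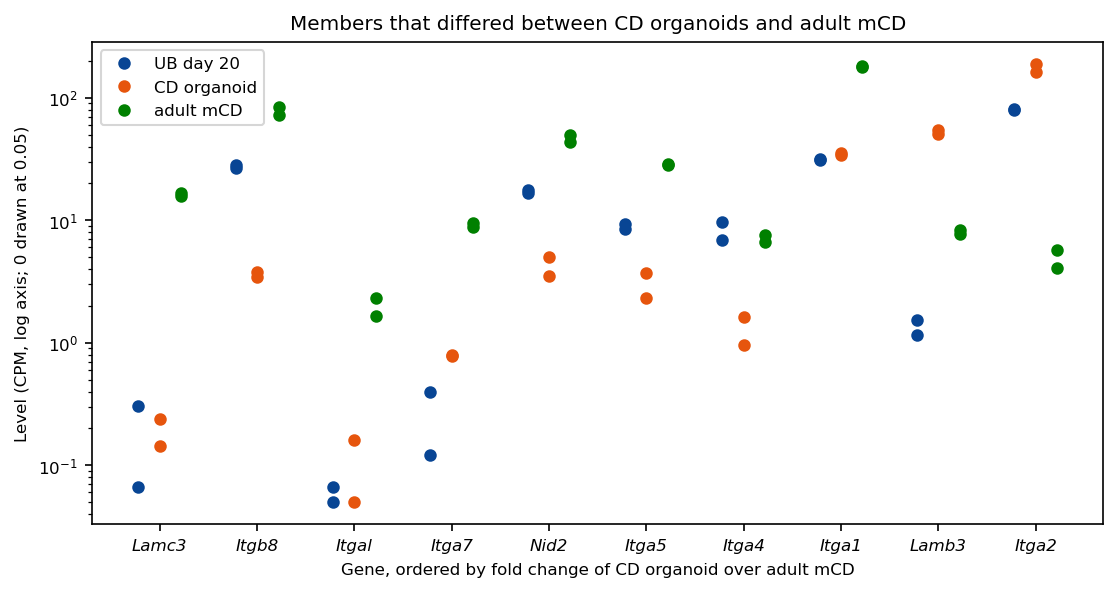
Levels in CPM, on a log axis, of the 10 genes called between CD organoids and adult mCD, with 1 point per library for UB day 20, CD organoids and adult mCD; a level of 0 is drawn at 0.05. The CD organoid points lie below the adult mCD points for 8 genes and above them for Lamb3 and Itga2.

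The nidogens, which join laminin γ1 to collagen IV, moved in opposite directions. Nid1 (chr13:13437551-13512269) was at 3.84 and 6.12 CPM at UB day 5, 19.8 and 15.7 CPM at day 10, 39.3 and 39.7 CPM at day 20 and 80.9 and 79.7 CPM in CD organoids. Nid2 (chr14:19751265-19811787) was at 100.2 and 90.8 CPM at day 5, 44.7 and 31.6 CPM at day 10, 17.6 and 16.7 CPM at day 20 and 5.06 and 3.53 CPM in CD organoids. Nid2 was thus the higher of the 2 at UB day 5 and Nid1 in CD organoids, in both libraries of each.

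The log2 change of Nid1 from day 5 to day 20 was 2.97 ± 0.17 (SE), adjusted p = 1.48e-08, and that of Nid2 -2.47 ± 0.16 (SE), adjusted p = 3.94e-08. In CD organoids against UB day 10 the changes were 2.18 ± 0.14 (SE), adjusted p = 2.64e-08, for Nid1 and -3.12 ± 0.19 (SE), adjusted p = 1.36e-08, for Nid2. Against UB day 20 both were under the 4-fold limit, at 1.02 and -1.97, and Nid2 passed it with library totals alone, at -2.04. In adult mCD Nid1 was at 38.6 and 36.1 CPM and Nid2 at 49.9 and 43.1 CPM, and CD organoids were lower than adult mCD in Nid2 by -3.41 ± 0.20 (SE), adjusted p = 5.89e-09. Nid2 shares 437 exon bases (8.45%) with Rtraf on the opposite strand, which had 648 to 2484 counts.

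Hspg2 and Agrn stayed within a few-fold. Hspg2, which encodes perlecan, was at 1297 and 1542 CPM at UB day 5, 1105 and 1111 CPM at day 20, 1239 and 1248 CPM in CD organoids and 715 and 609 CPM in adult mCD. CD organoids did not pass the test against UB day 10 (log2 change 0.051 ± 0.11 (SE), adjusted p = 0.726) or day 20 (0.17 ± 0.11 (SE), adjusted p = 0.246), and exceeded adult mCD by 0.91 ± 0.11 (SE), adjusted p = 7.66e-06. Agrn fell in UB culture from 1199 and 1499 CPM at day 5 to 521 and 541 CPM at day 20 (log2 change -1.34 ± 0.13 (SE), adjusted p = 1.69e-06), and was at 824 and 836 CPM in CD organoids and 435 and 388 CPM in adult mCD.

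The Fraser complex, which holds the embryonic epithelium to the mesenchyme and whose loss in mice causes renal agenesis, had less Frem2 and more Fras1 in CD organoids than in UB organoids. Frem2 (chr3:53513938-53657355) was at 1671 and 1751 CPM at UB day 5, 1113 and 1129 CPM at day 10, 1252 and 1249 CPM at day 20, 276 and 301 CPM in CD organoids and 167 and 137 CPM in adult mCD. The log2 change in CD organoids was -2.11 ± 0.093 (SE), adjusted p = 7.13e-10 against UB day 20, and -1.96 ± 0.093 (SE), adjusted p = 9.8e-10 against UB day 10, just inside the 4-fold limit. Adult mCD was lower than UB day 20 by -3.04 ± 0.097 (SE), adjusted p = 1.21e-11.

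Fras1 was at 415 and 345 CPM at UB day 10 and 643 and 612 CPM in CD organoids, a rise of 0.72 ± 0.097 (SE), adjusted p = 2.75e-05, and at 337 and 306 CPM in adult mCD. Frem1 fell from 7.30 and 10.1 CPM at UB day 5 to 1.31 and 0.912 CPM at day 10 (log2 change -2.92 ± 0.31 (SE), adjusted p = 1.07e-05) and was at most 2.78 CPM in the later groups. Grip1, the cytoplasmic scaffold that carries Fras1 and Frem2 to the basal surface, was at 36.4 and 43.3 CPM at UB day 10, 79.9 and 79.1 CPM in CD organoids and 24.1 and 20.04 CPM in adult mCD.

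The scaling bears on the comparisons with adult mCD. The TMM factors of the adult libraries were 0.792 and 0.793, against 0.999 to 1.12 in organoids, and 9.64% and 9.86% of their counts were mitochondrial. Without these factors the median log2 change of all genes for CD organoids over adult mCD moved from 0 to 0.34, and that for adult mCD over UB day 20 from -0.061 to -0.47. The share of all called genes that were higher in CD organoids than in adult mCD moved from 31.4% to 44.4%, and the called genes among the 42 were then 2 higher and 6 lower. Small differences turned with it. Lamb1 in CD organoids over adult mCD went from -0.31 to 0.088, Itga3 from -0.37 to 0.025, and Lamb2 in adult mCD over UB day 20 from 0.27 to -0.19.

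Other genes of the pathway were counted from 4 lists. Of 26 integrin adaptors and linked cytoskeletal genes, 1 was called in CD organoids against UB day 10 and 4 against adult mCD, where 10.7% and 14.3% of all genes were called. The gene called against UB day 10 was Fermt1, an epithelial kindlin that activates β integrins, which was higher. It was at 5.47 and 8.10 CPM at UB day 10, 28.9 and 32.1 CPM at day 20, 92.2 and 110.4 CPM in CD organoids and 92.9 and 85.05 CPM in adult mCD (log2 change 3.88, adjusted p = 1.49e-10 against UB day 10). At an adjusted p of at most 0.05, 12 adaptors rose and 3 fell in CD organoids against UB day 10, where 47.2% of all genes passed in either direction. Against UB day 20, 10 rose and 7 fell, where 42.2% of all genes passed in either direction. Plec and Dst, which encode plectin and dystonin, the plakins that link α6β4 to keratin filaments, were at 145 and 144 CPM and 158 and 133 CPM at UB day 20, 366 and 338 CPM and 327 and 325 CPM in CD organoids, and 710.3 and 597 CPM and 1008 and 934 CPM in adult mCD. The 4 genes that adult mCD held at called higher levels were Lims2, Parvb, Parvg and Tns1. Of these, Parvg was near the limit of detection, at 0.302 and 0.550 CPM in adult mCD. Ilk, the kinase-like partner of the parvins, was listed at no more than 0.612 CPM in any library. Overlaps of its exons with other genes were not examined, and whether these counts reflect its expression was not tested.

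Of 10 non-integrin matrix receptors, CD organoids were called higher than UB day 10 in Ddr2 alone, and higher than UB day 20 in Ddr2 and Bcam, where 4.96% and 4.74% of all genes were called higher. Bcam, a receptor for laminin α5, was at 474 and 260.2 CPM at UB day 10, 123 and 147 CPM at day 20, 589.7 and 627 CPM in CD organoids and 922 and 789 CPM in adult mCD (log2 change 2.17, adjusted p = 1.66e-06 against UB day 20). Ddr2, a collagen receptor of mesenchymal cells, was at 8.97 and 4.57 CPM in CD organoids, higher in replicate 1, as were the stromal markers. At an adjusted p of at most 0.05, 7 of the 10 rose and 0 fell in CD organoids against UB day 10, where 47.2% of all genes passed in either direction. Against UB day 20 it was also 7 and 0, where 42.2% of all genes passed in either direction.

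Of 22 other basement membrane genes, 21 were tested, and CD organoids had 4 called higher and 2 called lower than UB day 10, against 4.96% and 5.71% of all genes. The collagen IV chains Col4a3 and Col4a4, which with α5 form the network of mature glomerular and distal tubular membranes, rose in UB culture and again in CD organoids. Col4a3 was at 0.213 and 0.204 CPM at UB day 5, 8.38 and 10.8 CPM at day 20, 29.6 and 26.5 CPM in CD organoids and 474 and 475 CPM in adult mCD. Col4a4 was at 0.342 and 0.408 CPM, 25.3 and 30.8 CPM, 65.2 and 58.1 CPM and 913 and 864 CPM. Col4a1, of the chain pair found in all basement membranes, was at 138 and 112 CPM in CD organoids and 1185 and 1105 CPM in adult mCD. CD organoids had 3 of these genes called higher and 8 called lower than adult mCD, against 4.50% and 9.84% of all genes. The endothelial, podocyte and PC markers were all higher in adult mCD than in CD organoids, and the part of these cells in these differences was not tested.

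Of 10 other integrin ligands, CD organoids had Icam1 and Spp1 called higher, and Fn1 and Edil3 called lower, than UB day 10, where 4.96% and 5.71% of all genes were called. Edil3, an RGD ligand of αvβ3 and αvβ5, was at 43.8 and 28.3 CPM at UB day 10, 6.49 and 7.14 CPM at day 20 and 0.214 and 0.321 CPM in CD organoids. Against adult mCD 6 were called lower, where 9.84% of all genes were. The largest of these differences was that of Spp1, at 5.48 and 9.22 CPM in CD organoids and 1961 and 1994 CPM in adult mCD (log2 change -8.07, adjusted p = 7.89e-12).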

How the data were processed

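RNA-seq libraries of UB organoids, CD organoids and adult mCD were analysed from the table the authors deposited, which holds counts, RPKM values and scaled counts for 39273 genes in 10 libraries. Per the methods, reads were trimmed, aligned to mm10 (GENCODE M24) with STAR and counted with the E/M model of Partek Flow. The submitters' processing notes name FastQC 0.11.8, Trimmomatic 0.36, cutadapt 2.5, STAR and edgeR 3.28.1. Which of these runs gave the deposited counts is not settled here. The deposited RPKM values are these counts scaled to library size and gene length, apart from a scaling factor in each library, with gene lengths 1.07 to 5.85 times the exon union of GENCODE M21. Levels per kilobase were therefore computed from CPM and the exon union, in place of the deposited RPKM first planned, which are given as an alternative. The authors' TMM values, a signal of scaled counts, were not used. The reads were not processed again. Near-identical or overlapping genes are uncertain, as the E/M model, if used here, shares out reads that fit several genes.

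Counts were tested with edgeR 4.0.16 (quasi-likelihood test, TMM factors, prior count of 1, Benjamini-Hochberg adjustment) in R 4.3.3. All 10 libraries entered 1 fit of group means, which shared a common dispersion of 0.00831 and median prior degrees of freedom of 7.90, on which a test with 2 libraries per group leans. Genes with at least 10 counts in all were tested. Standard errors were derived from the test statistic. In simulated data 199 of 200 genes changed by 3 on the log2 scale were recovered in CD organoids against UB day 10 among 23642 genes, with 1 false call. The changed genes were drawn from those with higher mean counts, and every gene was given the same dispersion. Recovery of genes with few counts or a wide spread between replicates was therefore not covered. Replicates of a group differed by more than counting noise, with a chi-square of 2.73 to 25.4 per degree of freedom. It was highest at UB day 10 (25.4) and UB day 5 (10.7) and at most 4.97 in the other groups, whereas the fit shared its estimate of spread over all groups. Alternatives used DESeq2 1.42.0, limma 3.58.1, other filters, scalings, thresholds and prior counts, a replicate block, and the fit without each library. The genes, the lists and the tests were chosen with earlier results of these data known. Genes called in a comparison were named, and the remaining genes by role. Of the 45 genes, 1 is not reported here and is left out of the figures, but stays in the counts. Promoters were read from RefSeq on GRCm38.p6. Sequences of Lama3 are not reported here.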

Additional observations from a re-analysis of the deposited data

How the results depend on the processing

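Of 177 changes of the 42 genes at an adjusted p of at most 0.05, 65 were called. At that threshold alone the comparisons held 23 genes for UB day 10 against day 5, 30 for day 20 against day 5, 28 and 30 for CD organoids against UB days 10 and 20, 34 for CD organoids against adult mCD and 32 for adult mCD against UB day 20. With more than 2-fold and an adjusted p up to 0.01 they held 11 for day 10 and 19 for day 20 against day 5, and 23 for CD organoids against UB day 20. Of all 24410 genes tested, 2026, 4335 and 4523 passed these limits in the same comparisons.

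Leaving out 1 library at a time gave 3 to 6 called genes for UB day 10 against day 5, 9 to 10 for day 20 against day 5, 14 to 16 and 10 to 12 for CD organoids against UB days 10 and 20, 10 to 11 against adult mCD and 15 to 16 for adult mCD against UB day 20.

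Directions turned under library totals or quantile normalization for 4 genes, in comparisons with adult mCD. For CD organoids over adult mCD, Itga3 went from -0.37 to 0.025 with library totals, and Lamb1 from -0.31 to 0.088 with library totals and 0.086 with quantile normalization. For adult mCD over UB day 20, Lamb2 went from 0.27 to -0.19 with library totals and -0.018 with quantile normalization, and Npnt from 0.77 to -0.15 with quantile normalization. Quantile normalization moved the median of all genes to 0.21 and -0.28 in these comparisons, and the share of called genes that were higher to 43.7% and 53.5%. The cause was not tested.

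Samples of a replicate number did not deviate together, with correlations of -0.026 to 0.096 between deviations in the 6 comparisons, and a fit with the replicate number as a block called 4, 9, 15, 11, 10 and 16 of the 42 genes in the order of the report. In the same order it called 826, 2072, 2583, 2284, 3414 and 4601 of all 24410 genes tested. Depth limits genes under 3 counts per library, among them Itgal, Itgb2 and Lamc3 in several groups.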
